A study of Mus musculus with 6 samples.

Results

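Gene expression in mouse colon was compared between wild-type interleukin-22 (WT IL-22) and phosphate-buffered saline (PBS), 6 h after dosing. The comparison covers the 15490 of 35275 genes in the deposited count table that had a count of 10 or more in at least 2 of the 4 libraries, 2 for each treatment. The mice were C57BL/6, the protein was given at 200 µg per mouse, and RNA came from whole colon tissue, per the labels. Age, sex and whether each library is 1 animal are not stated in the labels, and every p-value measures the spread between these libraries. A further treatment of the same set, 22-B3, enters below through its 2 libraries in the scaling and the shared estimate of that spread. Its values are also given for the trend with gene length.

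IL-22 is a cytokine made by lymphoid cells whose receptor sits on epithelial and other non-immune cells. Its receptor activates STAT3, a transcription factor that switches on feedback inhibitors, antimicrobial and glycosylation genes, and in the gut the cytokine is known for epithelial defence and renewal. Whole colon holds epithelium, smooth muscle, connective tissue, nerves and immune cells together. In such bulk RNA, fewer cells of a type and less RNA per cell cannot be told apart.

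Total counts were 20740041 and 22081904 in the WT IL-22 libraries and 19329695 and 19744956 in the PBS libraries, and mitochondrially encoded genes took 1.91% to 1.96% with WT IL-22 and 2.24% to 2.35% with PBS. The PBS libraries were far closer to each other than the WT IL-22 libraries were. The biological coefficient of variation was 16.8% in the WT IL-22 pair, 5.47% in the PBS pair and 21.8% in the 22-B3 pair. Immunoglobulin variable segments, which differ from one set of B cell clones to the next, correlated at r = 0.237 across 90 segments in the WT IL-22 pair and at r = 0.963 across 79 segments in the PBS pair, on log2 counts. Counts are therefore given with the PBS libraries as 2 replicates and also with them summed into 1. The epithelial genes Epcam and Krt8 differed little between the groups: Epcam stood at 1634 and 1576 CPM (counts scaled to library size with TMM factors) with WT IL-22 and at 1791 and 1769 CPM with PBS. Other epithelial genes did differ. Cdh1 and Vil1 had log2 changes of 0.72 and 0.72, and Car1 of -0.91. Of 19 colonocyte markers 3 were higher and 3 lower at an edgeR adjusted p under 0.05. Smooth muscle markers were lower. The 20 markers summed to 10910 and 15010 CPM with WT IL-22 and to 20570 and 20720 CPM with PBS, and their part in the results below was not tested.

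The size of a change also moved with gene length. In the shortest of 4 equal groups of genes, with a median length of 1276 bp, the median log2 differences of WT IL-22 replicates 1 and 2 from the PBS mean were -0.41 and -0.31. In the longest group, with a median of 5808 bp, they were 0.33 and 0.18. The PBS libraries differed from each other by medians of 0.02 and -0.01 in the same groups. 22-B3 replicate 1 showed the trend (-0.31 and 0.26) and replicate 2 did not (0.01 and 0.01). Of the shortest group 3.80% of genes rose and 15.2% fell, and of the longest 15.6% rose and 1.37% fell. Counts adjusted for gene length, by a smooth curve fitted to each library, were added after this trend was seen and stand beside several gene classes below. In others the adjusted fit called 19 mitosis genes and 16 interferon-induced genes higher. It called 11 junction genes, 10 glycosyltransferases and 23 genes of nucleotide synthesis higher, and 1 of each class lower.

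**Figure D1:**
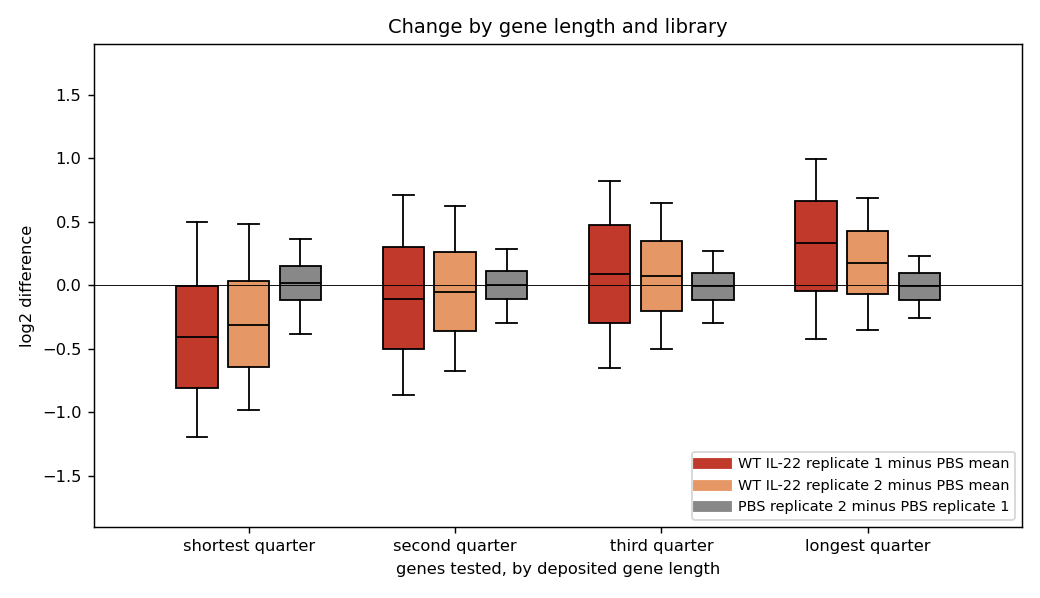
Log2 difference (y axis) of the genes tested in 4 equal groups by deposited gene length (x axis), for WT IL-22 replicate 1 and replicate 2 against the PBS mean and for PBS replicate 2 against PBS replicate 1. Boxes span the quartiles with the median as a line, whiskers the 10th to 90th percentiles; the WT IL-22 medians are -0.41 and -0.31 in the shortest group and reach 0.33 and 0.18 in the longest, while the PBS pair stays near 0.

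The first question was how much of the colon transcriptome WT IL-22 moved. With edgeR's quasi-likelihood test, 1559 genes (10.1%) rose and 1061 genes (6.85%) fell at an adjusted p under 0.05, and "rose" and "fell" are used below only for such genes. All of them had groups that did not overlap, as had 34.38% of all genes in the upward and 35.36% in the downward direction. The median log2 change over all genes was -0.01, with quartiles at -0.39 and 0.36. Most changes were below 2-fold: 531 genes rose by more than 1 on the log2 scale, 97 by more than 2 and 25 by more than 3, and 366, 56 and 17 fell by as much. Genes that rose summed to 167400 CPM with WT IL-22 and 88600 CPM with PBS, and genes that fell to 74090 CPM with WT IL-22 and 140400 CPM with PBS.

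These totals depended on single libraries. After the PBS libraries were summed, 127 genes (0.82%) rose and 29 (0.187%) fell, all of them among the 1559 and 1061. Dropping PBS replicate 1 gave 120 and 29, and dropping PBS replicate 2 gave 117 and 28. Dropping WT IL-22 replicate 1 gave 338 and 128, and dropping its replicate 2 gave 1021 and 660. Leaving out replicate 1 or 2 of 22-B3, the pair with the largest spread, raised the totals to 2597 and 2467 or to 2786 and 2245. Adjusted for gene length, 1745 genes (11.3%) rose and 1030 (6.65%) fell, of which 1329 and 686 were among the genes called without that adjustment. Upper-quartile scaling placed the median of all genes at -0.13 and gave 1100 rises and 1583 falls, so that 41.0% of calls were upward, against 59.5% with TMM.

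**Figure D2:**
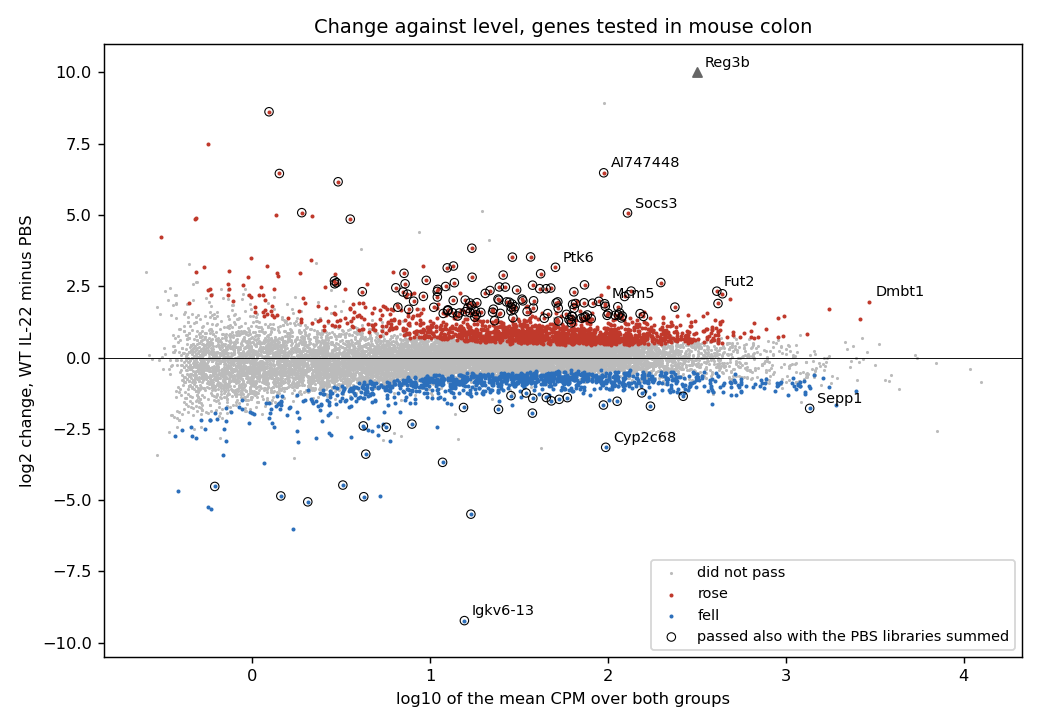
Log2 change, WT IL-22 minus PBS (y axis), against log10 of the mean CPM over both groups (x axis) for the genes tested; red points rose, blue points fell, grey points did not pass, and circles mark genes that passed also after summing the PBS pair. The triangle marks Reg3b, drawn at the edge of the axis because both PBS libraries had 0 counts; it did not pass, nor did its paralog Reg3g, the grey point below it.

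The share of genes called moved with their level. Of 7698 genes at 10 to 100 CPM, 12.8% rose and 7.09% fell, and of 2020 genes at 100 to 1000 CPM, 17.7% rose and 10.6% fell. Below 1 CPM 1.51% rose and 1.97% fell, where the median half-width of the 95% interval was 1.33 on the log2 scale. Above 1000 CPM the split turned round, with 4 of 109 genes rising and 21 falling (10 and 18 after length adjustment). The 4 were Dmbt1, Ceacam1, Muc13 and Gsdmc4. Long intergenic RNAs rose in 9 and fell in 22 of 280 cases (3.2% and 7.9%). Pseudogenes rose in 14 and fell in 16 of 311 (4.5% and 5.1%). Over all genes the shares were 10.1% and 6.85%. Adjusted for length, the intergenic RNAs had 10 rises and 21 falls. The pseudogenes, with a median length of 681 bp, then had 25 rises and 9 falls. Among protein-coding genes, 1513 of 14418 rose and 974 fell (10.5% and 6.76%), and of 130 immunoglobulin segments 15 rose and 23 fell (11.5% and 17.7%). The immunoglobulin segments are short, with a median length of 351 bp, and length adjustment reversed their balance to 21 rises and 9 falls.

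Socs3, the feedback inhibitor that STAT3 induces, had 247 and 253 CPM in the WT IL-22 libraries and 7.80 and 7.07 CPM in the PBS libraries. Among further genes with the largest rises, Ptk6, a tyrosine kinase of epithelial cells, had 85.6 and 96.9 CPM with WT IL-22 and 10.6 and 9.77 CPM with PBS (log2 change 3.16, SE 0.157, edgeR adjusted p = 4.96e-05). Cpn2, the large subunit of carboxypeptidase N, which trims peptides such as kinins and anaphylatoxins, had 21.8 and 23.1 CPM with WT IL-22 and 2.05 and 3.01 CPM with PBS. The libraries of each treatment stayed close together for these 3 genes. Isx, an intestinal homeobox factor that restrains vitamin A formation, had 92.9 and 55.2 CPM with WT IL-22 and 10.5 and 8.78 CPM with PBS (log2 change 2.94, SE 0.29, edgeR adjusted p = 0.000998). Cd38, an enzyme that consumes NAD, had 787 and 665 CPM with WT IL-22 and 152 and 156 CPM with PBS. All 5 passed also after summing the PBS pair and after length adjustment.

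The promoter of Socs3 is shown because STAT3 binds palindromes of the form TTCNNNGAA. The 250 bases before the RefSeq start site (GRCm38.p6, chr11:117969367-117969616, minus strand) hold 1 such match, in capitals:
Socs3: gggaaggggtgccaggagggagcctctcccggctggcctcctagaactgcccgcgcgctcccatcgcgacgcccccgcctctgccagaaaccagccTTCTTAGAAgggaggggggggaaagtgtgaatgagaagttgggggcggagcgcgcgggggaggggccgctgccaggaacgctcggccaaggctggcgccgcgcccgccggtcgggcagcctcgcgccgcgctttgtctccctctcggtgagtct
Across the 8868 genes tested with 1 such window, the letters occurred in 6.11% of windows on either strand, and in 6.95% of those of genes that rose. Of 20 windows of STAT3 feedback and signalling genes 1 held the letters (5.0%), that of Socs3. A match of letters describes the window and is not a measured binding site.

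Among genes that passed also after summing the PBS pair, leaving out immunoglobulin segments and Gm or Rik symbols, the largest falls were those of Cyp2c69 and Cyp2c68, close paralogs of the cytochrome P450 family whose reads could be shared. Cyp2c68 had 16.0 and 23.3 CPM with WT IL-22 and 174 and 176 CPM with PBS (log2 change -3.15, SE 0.210, edgeR adjusted p = 0.000241), and Cyp2c69 fell by 3.68. Sepp1, the plasma carrier of selenium, had 511 and 714 CPM with WT IL-22 and 2084 and 2136 CPM with PBS (log2 change -1.78, SE 0.217, edgeR adjusted p = 0.00237). Ttr, the thyroid hormone carrier transthyretin, had 12.1 and 18.8 CPM with WT IL-22 and 63.0 and 56.6 CPM with PBS. Pck1, the first committed enzyme of gluconeogenesis, had 61.2 and 54.5 CPM with WT IL-22 and 170 and 165 CPM with PBS (log2 change -1.53, SE 0.139, edgeR adjusted p = 0.000756). In all 3 both WT IL-22 libraries lay far below the lower PBS library.

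The 3 Mettl7a paralogs that lie side by side on chromosome 15 fell together, although their reads could be shared. Mettl7a1 had 80.2 and 82.3 CPM with WT IL-22 and 259 and 272 CPM with PBS, and Mettl7a2 and Mettl7a3 both had log2 changes of -2.40. The ceramidase gene Acer1 and Ccbl1, a kynurenine aminotransferase, fell with log2 changes of -1.52 and -1.41. Best2, a bicarbonate-conducting channel of goblet cells, had 23.1 and 33.4 CPM with WT IL-22 and 74.1 and 82.3 CPM with PBS. Ypel3 fell by 1.43. All of these passed also after summing the PBS pair, apart from Mettl7a3 (edgeR adjusted p = 0.0898).

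In terms of transcripts gained, Dmbt1 led. This secreted scavenger receptor of mucosal surfaces had 5787 and 3492 CPM with WT IL-22 and 1178 and 1203 CPM with PBS (log2 change 1.96, edgeR adjusted p = 0.00651). The adhesion receptor Ceacam1 had 4697 and 2815 CPM with WT IL-22 and 1512 and 1398 CPM with PBS. Replicate 1 was the higher WT IL-22 library in both. Gpx2, the glutathione peroxidase of the gut lining, went the other way between replicates, with 1115 and 1496 CPM with WT IL-22 and 498 and 503 CPM with PBS. The creatine transporter Slc6a8 had 1031 and 826 CPM with WT IL-22 and 399 and 402 CPM with PBS. The gene 2010109I03Rik stood at 779 and 781 CPM with WT IL-22 and at 187 and 191 CPM with PBS. Of these 5, none passed after summing the PBS pair (edgeR adjusted p = 0.0925 for Dmbt1 and 0.152 for Slc6a8, the lowest and highest).

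Among the 10 largest losses in CPM were those of Prdx6, Tagln and Sepp1. Prdx6, a peroxiredoxin, had 989 and 847 CPM with WT IL-22 and 2960 and 2814 CPM with PBS (log2 change -1.65, edgeR adjusted p = 0.00754, and 0.0798 after summing the PBS pair). Tff3, the trefoil peptide of goblet cells, had 559 and 623 CPM with WT IL-22 and 1479 and 1440 CPM with PBS. Its log2 change was -1.31, and -0.62 after length adjustment, at which it still passed (edgeR adjusted p = 0.0108). The ribosomal protein genes Rpl9, Rpl13a, Rps12 and Rps14 were among the other large losses, with Csrp1 and S100a6.

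**Figure D3:**
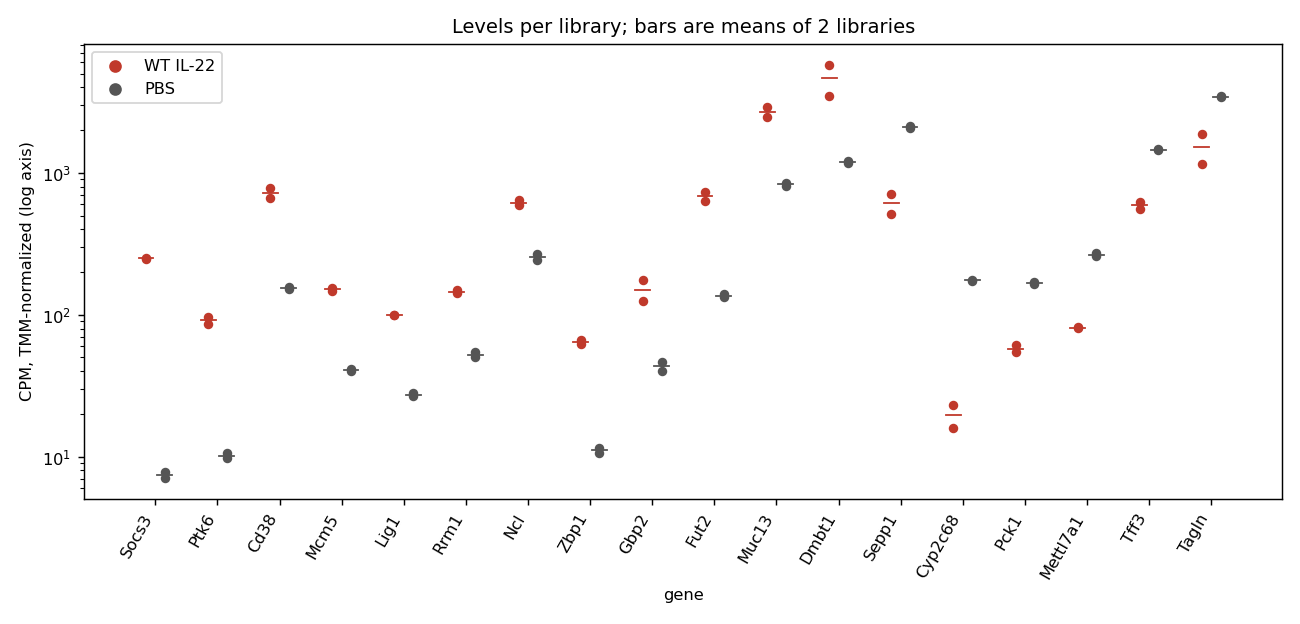
TMM-normalized CPM on a log axis (y axis) of 18 genes (x axis) in each library, with WT IL-22 in red at the left and PBS in grey at the right of each gene; bars are means of 2 libraries. The first 12 genes, from Socs3 to Dmbt1, lie higher in both WT IL-22 libraries and the last 6, from Sepp1 to Tagln, lie lower, with no overlap between the groups.

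Most of the listed DNA replication genes rose. Of 41 members, 31 rose and by edgeR 0 fell (2 had an unadjusted p under 0.05 downward, and DESeq2 called 1), with a median log2 change of 1.31 against -0.01 over all genes. Lig1, the ligase that joins Okazaki fragments, had 99.8 and 99.0 CPM with WT IL-22 and 27.9 and 26.6 CPM with PBS (log2 change 1.87, SE 0.14, edgeR adjusted p = 0.000329). Cdt1, which loads the MCM helicase onto origins, had 61.1 and 45.2 CPM with WT IL-22 and 12.4 and 14.3 CPM with PBS. Pcna, the sliding clamp, had 220 and 216 CPM with WT IL-22 and 104 and 108 CPM with PBS. In all 3 the groups stood well apart. The number that rose was 18 after summing the PBS pair, 23 after leaving out the first WT IL-22 library, 27 after leaving out the second and 35 after length adjustment (median 1.36). Over the 87 lists, counts without 1 of the PBS libraries differed by at most 2 from those after summing the PBS pair.

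The promoters of the MCM helicase genes Mcm5 and Mcm6 are shown because E2F factors, which switch on S phase genes, recognise TTTCCCGC or TTTGGCGC. Both are from RefSeq (GRCm38.p6), Mcm5 at chr8:75109259-75109508 on the plus strand and Mcm6 at chr1:128359706-128359955 on the minus strand, with matches on either strand in capitals:
Mcm5: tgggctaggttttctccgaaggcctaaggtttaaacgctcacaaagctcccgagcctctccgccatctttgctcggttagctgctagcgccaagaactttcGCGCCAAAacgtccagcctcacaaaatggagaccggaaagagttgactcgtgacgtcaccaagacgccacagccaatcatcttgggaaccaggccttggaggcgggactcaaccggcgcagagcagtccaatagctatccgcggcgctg
Mcm6: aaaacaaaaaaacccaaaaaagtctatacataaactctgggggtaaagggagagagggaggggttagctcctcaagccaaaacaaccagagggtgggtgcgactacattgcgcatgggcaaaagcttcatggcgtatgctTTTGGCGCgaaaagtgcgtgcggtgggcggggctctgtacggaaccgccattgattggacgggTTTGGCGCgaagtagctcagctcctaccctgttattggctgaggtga
Mcm5 had 147 and 155 CPM with WT IL-22 and 40.3 and 41.3 CPM with PBS, and Mcm6 had 212 and 193 CPM with WT IL-22 and 43.8 and 47.9 CPM with PBS. Either motif occurred in 2.47% of all 8868 windows, in 6.01% of those of genes that rose, in 1.13% of those of genes that fell, and in 6 of the 23 windows of replication genes that rose.

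The rest of the cell cycle followed in part. Of 35 G1 regulators and E2F genes, 14 rose and 3 fell. E2f8 had 51.4 and 38.5 CPM with WT IL-22 and 8.41 and 7.79 CPM with PBS (log2 change 2.47, edgeR adjusted p = 0.000405). Cyclin D1 (Ccnd1), which drives entry into the cycle, had 229 and 222 CPM with WT IL-22 and 77.1 and 78.3 CPM with PBS. E2f2 and cyclin E1 (Ccne1) rose by 2.01 and 1.56 on the log2 scale. The 3 that fell act against the cycle: the kinase inhibitors Cdkn2b at -0.74 and Cdkn1b at -0.61, and Mxd4, a MYC antagonist, at -0.54 (edgeR adjusted p = 0.0125, 0.0479 and 0.0394). The number that rose was 8 when the first WT IL-22 library was dropped, and 5 when the PBS pair was summed, where edgeR called 0 lower (3 at an unadjusted p under 0.05).

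Of 43 mitosis genes 21 rose and edgeR called 0 lower (1 at an unadjusted p under 0.05, and 0 by DESeq2), with a median of 0.60. Only Smc2, of the condensin complex, and Top2a, which untangles chromosomes, passed after summing the PBS pair. Top2a had 154 and 145 CPM with WT IL-22 and 48.6 and 53.7 CPM with PBS. Mki67, a widely used proliferation marker, had 127 and 86.5 CPM with WT IL-22 and 45.2 and 46.0 CPM with PBS. The number of mitosis genes that rose was 6 when the first WT IL-22 library was dropped and 15 when the second was.

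Genes of nucleotide synthesis rose as well. Of 33 nucleotide synthesis genes 19 rose and edgeR called 0 lower (1 at an unadjusted p under 0.05 and 1 by DESeq2), with a median of 0.73. The subunits of ribonucleotide reductase, which makes deoxynucleotides, were among them: Rrm1 had 149 and 142 CPM with WT IL-22 and 54.3 and 50.1 CPM with PBS, and Rrm2 had 62.6 and 54.5 CPM with WT IL-22 and 16.4 and 18.8 CPM with PBS. The one-carbon enzymes Shmt1 and Mthfd1 rose by 1.36 and 1.51. Rrm1, Rrm2, Shmt1 and Mthfd2 passed after summing the PBS pair. There were 11 rises when the first WT IL-22 library was dropped and 13 when the second was.

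**Figure D4:**
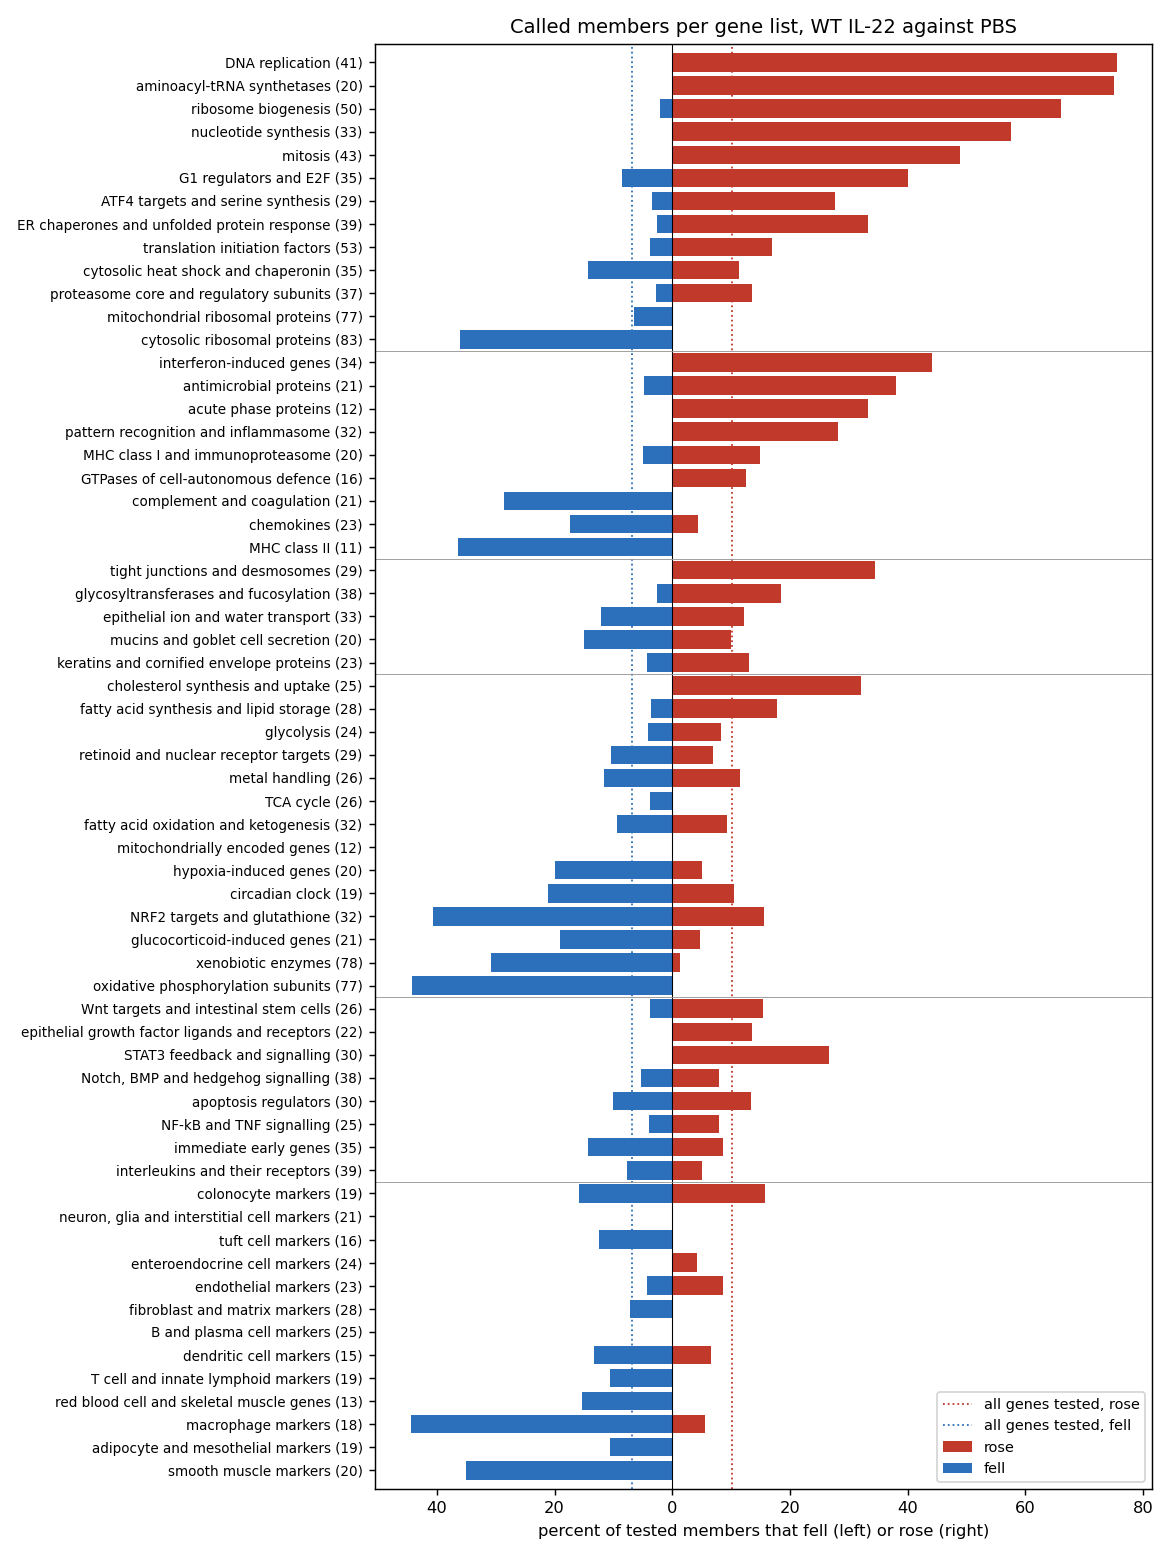
Percent of tested members of each gene list that fell (bars to the left, blue) or rose (bars to the right, red) with WT IL-22 against PBS, with the number tested in brackets; dotted lines mark the shares over all genes tested, 10.1% that rose and 6.85% that fell. Lists of growth stand at the top, then defence, barrier, metabolism, signalling and cell type markers; DNA replication and tRNA synthetases reach furthest to the right and oxidative phosphorylation, macrophage and NRF2 lists furthest to the left.

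Many genes that build ribosomes rose, while many ribosomal protein genes fell. Of 50 ribosome biogenesis genes 33 rose and 1, Polr1c, fell, with a median log2 change of 0.75. Nucleolin (Ncl), which acts on ribosomal RNA in the nucleolus, had 640 and 596 CPM with WT IL-22 and 244 and 266 CPM with PBS (log2 change 1.28, edgeR adjusted p = 0.00521). Mybbp1a, another nucleolar protein, had 166 and 157 CPM with WT IL-22 and 58.3 and 57.6 CPM with PBS. Nolc1, a nucleolar chaperone, rose by 1.44. After length adjustment 38 rose with a median of 0.81. Only 3 rose once the PBS pair was summed, 14 when the first WT IL-22 library was dropped and 23 when the second was.

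Of 20 aminoacyl-tRNA synthetases, which charge tRNAs with amino acids, 15 rose, and the log2 changes of the 20 spanned 0.07 to 1.37. Vars had 171 and 146 CPM with WT IL-22 and 60.1 and 62.6 CPM with PBS (log2 change 1.37, edgeR adjusted p = 0.00335). Mars, Wars and Nars rose by 0.97, 0.96 and 0.91. Summed PBS libraries left edgeR with 0 of them (15 at an unadjusted p under 0.05). DESeq2, with the PBS libraries kept apart, called 16. The number was 4 with the first WT IL-22 library dropped and 11 with the second dropped.

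Amino acid supply genes partly rose. Of 29 ATF4 targets and serine synthesis genes 8 rose and 1 fell. Slc7a5, the importer of large neutral amino acids, had 46.9 and 39.4 CPM with WT IL-22 and 13.0 and 14.8 CPM with PBS (log2 change 1.64, edgeR adjusted p = 0.00168). Mthfd2, of mitochondrial one-carbon metabolism, and Aldh18a1, of proline synthesis, rose by 1.61 and 1.18. Ddit4, an inhibitor of mTOR complex 1, had 44.0 and 48.1 CPM with WT IL-22 and 103 and 98.2 CPM with PBS (log2 change -1.12, edgeR adjusted p = 0.00451). Of the 8 rises, 2 passed once the PBS pair was summed.

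Among heat shock and chaperonin genes, 2 that work in mitochondria rose, as did the cytosolic Hsp90aa1 and Hspa4 (log2 changes 0.92 and 0.66). Hspd1, the mitochondrial chaperonin, had 564 and 434 CPM with WT IL-22 and 186 and 180 CPM with PBS (log2 change 1.45, edgeR adjusted p = 0.00234), and Hspa9, the mitochondrial Hsp70, had 537 and 490 CPM with WT IL-22 and 253 and 266 CPM with PBS. Of 35 heat shock and chaperonin genes in all, 4 rose and 5 fell (11.4% and 14.3%, against 10.1% and 6.85% over all genes). Dropping the first WT IL-22 library left 1 rise and edgeR called 0 lower, dropping the second left 4 and 5, and in the summed PBS fit it called 0 (4 higher and 5 lower at an unadjusted p under 0.05; DESeq2 on all libraries called 6 and 6). The falls included the small heat shock genes Hspb1, Hspb8 and Cryab. Hspb1 had 67.1 and 94.3 CPM with WT IL-22 and 167 and 156 CPM with PBS, and Hspb8 and Cryab had log2 changes of -0.84 and -0.89. All 3 are also expressed in muscle, and the summed smooth muscle markers were lower as given above; their part in these falls was not tested. Of 39 endoplasmic reticulum chaperones and unfolded protein response genes 13 rose and 1 fell. Calr, a chaperone of glycoproteins, had 1238 and 1185 CPM with WT IL-22 and 741 and 692 CPM with PBS. Leaving out the first or the second WT IL-22 library left 2 or 8 rises of that list, and summing the PBS pair left 0 (13 at an unadjusted p under 0.05).

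Of 83 cytosolic ribosomal proteins 30 fell and all 83 had a log2 change below 0 (median -0.73). Their members are short, with a median length of 930 bp, and the change was smaller once length was adjusted: 11 fell and the median was -0.30. The list summed to 44050 and 57160 CPM with WT IL-22 and 82490 and 89560 CPM with PBS. Rps27, of 255 bp, stood at 320 and 324 CPM with WT IL-22 and at 652 and 672 CPM with PBS (log2 change -1.04, and -0.18 adjusted for length, edgeR adjusted p = 0.0222 and 0.318). Rpl9, listed at 2686 bp, kept a log2 change of -1.26 after the adjustment, against -1.29 before it. Ribosomal protein genes have many processed copies, so their values are uncertain. Once the PBS pair was summed, edgeR called 0 lower (38 at an unadjusted p under 0.05), and after leaving out the first or the second WT IL-22 library it called 0 or 5.

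Many nuclear-encoded subunits of oxidative phosphorylation also fell, and these genes too are short, with a median length of 963 bp. Of 77, 34 fell (median log2 change -0.70), and 11 did so after length adjustment (median -0.20). Cox7a1, the muscle form of a cytochrome oxidase subunit, had 16.8 and 19.1 CPM with WT IL-22 and 46.2 and 48.2 CPM with PBS. It passed before and after the adjustment (edgeR adjusted p = 0.0065 and 0.00888). The longer subunit gene Atp5a1, of 2674 bp, had 1755 and 1825 CPM with WT IL-22 and 1704 and 1718 CPM with PBS. Once the PBS pair was summed, edgeR called 0 lower (42 at an unadjusted p under 0.05), after leaving out the first WT IL-22 library it called 0, and after leaving out the second it called 5. Of 77 mitochondrial ribosomal proteins 5 fell and the median was -0.27, which the adjustment brought to 0.01. Of 12 mitochondrially encoded genes edgeR called 0 (1 lower at an unadjusted p under 0.05, and 1 by DESeq2).

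**Figure D5:**
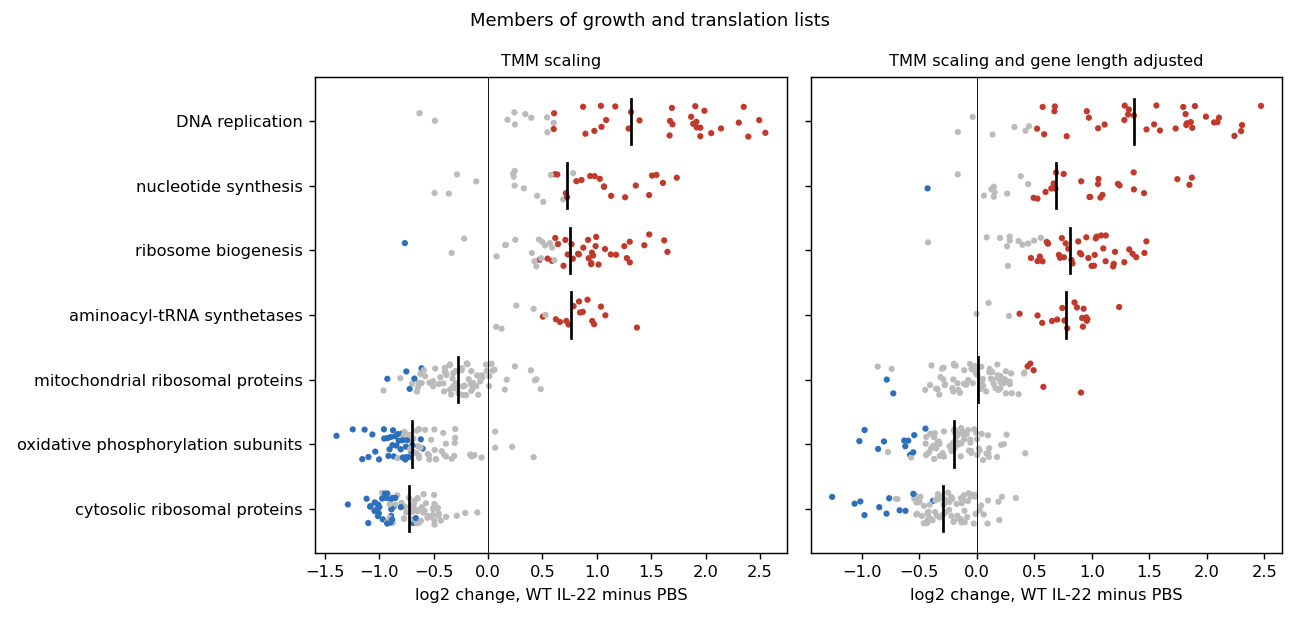
Log2 change, WT IL-22 minus PBS (x axis), of each tested member of 7 growth and translation lists (y axis), with TMM scaling (left) and with gene length adjusted as well (right); red members rose, blue members fell, grey members did not pass, and black bars are medians. The 4 upper lists keep their medians, such as 1.31 and 1.36 for DNA replication, while the 3 lower lists move toward 0, such as -0.73 and -0.30 for cytosolic ribosomal proteins.

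Part of the interferon-induced genes rose. Of 34 members 15 rose and edgeR called 0 lower (1 at an unadjusted p under 0.05, and 0 by DESeq2), with a median of 0.51. Zbp1, a sensor of Z-form nucleic acids, had 62.5 and 66.2 CPM with WT IL-22 and 10.7 and 11.5 CPM with PBS (log2 change 2.54, edgeR adjusted p = 0.000209). Oas3, which makes the second messenger that activates RNase L, had 29.3 and 19.6 CPM with WT IL-22 and 2.05 and 3.22 CPM with PBS. Ifit1, which binds viral RNA ends, had raw counts of 571 and 614 with WT IL-22 and of 195 and 175 with PBS. Stat2 and Irf7, factors of the interferon response, rose by 0.72 and 0.56. The number of the list that rose was 5 once the PBS pair was summed, 8 when the first WT IL-22 library was dropped and 11 when the second was.

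The promoters of Ifit1 and Oas3 are shown because interferon factors bind a pair of TTTC blocks with any 2 bases between them, the core of the interferon-stimulated response element. Both are from RefSeq (GRCm38.p6), Ifit1 at chr19:34640639-34640888 on the plus strand and Oas3 at chr5:120777660-120777909 on the minus strand, with matches on either strand in capitals:
Ifit1: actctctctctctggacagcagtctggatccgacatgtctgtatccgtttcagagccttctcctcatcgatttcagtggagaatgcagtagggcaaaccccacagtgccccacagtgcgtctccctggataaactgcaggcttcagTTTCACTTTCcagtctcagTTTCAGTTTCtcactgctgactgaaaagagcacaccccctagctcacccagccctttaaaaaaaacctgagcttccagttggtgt
Oas3: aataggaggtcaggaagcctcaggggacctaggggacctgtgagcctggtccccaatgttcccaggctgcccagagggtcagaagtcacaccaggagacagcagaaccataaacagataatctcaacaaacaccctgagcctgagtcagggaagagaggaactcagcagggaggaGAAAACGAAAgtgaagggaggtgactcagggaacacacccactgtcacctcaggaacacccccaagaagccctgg
The motif occurred in 2.67% of all 8868 windows, in 3.16% of those of genes that rose, and in 8 of the 22 windows of the interferon list.

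Antigen presentation did not move as 1 block. Of 20 class I and immunoproteasome genes, Erap1, Psmb8 and Tap1 rose, by 0.86, 0.88 and 0.90, and H2-T23 fell by 0.50 (edgeR adjusted p = 0.0108, 0.0157, 0.0337 and 0.0499). The class I heavy chain H2-K1 had 756 and 710 CPM with WT IL-22 and 786 and 820 CPM with PBS, and did not pass. Of 11 class II genes 4 fell, and the list median was -0.81, or -0.48 once length was adjusted, where edgeR called 0 (2 lower at an unadjusted p under 0.05). The class II invariant chain Cd74 had 266 and 372 CPM with WT IL-22 and 431 and 436 CPM with PBS, and did not pass. Dropping the first WT IL-22 library left 1 class I gene higher and 0 class II genes called by edgeR (4 class II genes had an unadjusted p under 0.05 downward after summing the PBS pair, and DESeq2 on all libraries called 5).

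Of 32 pattern recognition and inflammasome genes 9 rose and edgeR called 0 lower (1 at an unadjusted p under 0.05, and 0 by DESeq2). Naip1, a sensor of bacterial secretion systems, had 240 and 233 CPM with WT IL-22 and 142 and 136 CPM with PBS, although Naip paralogs can share reads. The gasdermins Gsdmc2 and Gsdmc4, also close paralogs, had 451 and 611 CPM and 1415 and 1952 CPM with WT IL-22, and 320 and 289 CPM and 976 and 928 CPM with PBS. Cd14, the lipopolysaccharide co-receptor, and the adaptor Myd88 rose by 0.87 and 0.65 (edgeR adjusted p = 0.02 and 0.0267). After summing the PBS pair edgeR called 0 (7 at an unadjusted p under 0.05), leaving out the first or the second WT IL-22 library left 2 or 1, and upper-quartile scaling left 5. Tifa, the adaptor that the bacterial sugar sensor Alpk1 phosphorylates, had 241 and 210 CPM with WT IL-22 and 46.9 and 42.7 CPM with PBS (log2 change 2.33, edgeR adjusted p = 0.00117, and 0.026 after summing the PBS pair). Its neighbour Alpk1 rose by 0.66 (edgeR adjusted p = 0.0389) and did not pass after length adjustment (0.0945).

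Of 26 TNF ligands and receptors 4 rose and 2 fell (15.4% and 7.69%, against 10.1% and 6.85% over all genes). Tnfrsf1b, a TNF receptor, had 66.4 and 60.3 CPM with WT IL-22 and 25.3 and 23.5 CPM with PBS (log2 change 1.38, edgeR adjusted p = 0.00191). Of that family 1 gene rose once the PBS pair was summed, 2 rose when the first WT IL-22 library was dropped, and 3 when the second was. Of 23 chemokines, Cxcl5, which attracts neutrophils, rose, and Ccl28, Ccl21a, Cxcl16 and Ccl19 fell. Ccl28, a chemokine of mucosal epithelium, had 70.1 and 70.9 CPM with WT IL-22 and 138 and 145 CPM with PBS. Summing the PBS pair left 0 chemokines called by edgeR (1 higher and 4 lower at an unadjusted p under 0.05, and 1 and 3 by DESeq2 on all libraries), and dropping the first WT IL-22 library left only 1 rise. Of 39 interleukins and receptors 2 rose and 3 fell (5.13% and 7.69%, against 10.1% and 6.85% over all genes). Il18bp, which neutralises IL-18, had 10.4 and 9.89 CPM with WT IL-22 and 2.51 and 3.12 CPM with PBS, while Il1rn, Il15 and Il13ra2 fell, the last 2 with log2 changes of -1.13 and -2.31. Il1rn, the IL-1 receptor antagonist, had 30.3 and 33.2 CPM with WT IL-22 and 60.4 and 66.9 CPM with PBS. Dropping the first WT IL-22 library left 1 rise and 2 falls in the interleukin list, and once the PBS pair was summed edgeR called 0 (2 higher and 4 lower at an unadjusted p under 0.05, and 2 and 4 by DESeq2 on all libraries).

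Glycosylation, junction and ion transport genes of the epithelium were listed separately. Of 38 glycosyltransferases 7 rose and 1, B3gnt8, fell. Chst4, a sulfotransferase of mucin-type glycans, had 230 and 232 CPM with WT IL-22 and 84.2 and 86.2 CPM with PBS (log2 change 1.44, edgeR adjusted p = 0.00209, and 0.0499 after summing the PBS pair). With the first WT IL-22 library dropped 4 glycosyltransferases rose, and 2 with the PBS pair summed. Of 29 tight junction and desmosome genes 10 rose and edgeR called 0 lower (2 at an unadjusted p under 0.05, and 0 by DESeq2). The desmosomal Pkp2 and Dsc2 and the claudin Cldn8 rose by 0.66, 0.74 and 0.66. E-cadherin (Cdh1) had 1256 and 1005 CPM with WT IL-22 and 691 and 677 CPM with PBS. After summing the PBS pair edgeR called 0 junction genes (9 at an unadjusted p under 0.05), after leaving out the first WT IL-22 library it called 1, after leaving out the second it called 4, and with upper-quartile scaling 4 rose and 1 fell.

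Single transporters of the absorptive surface moved in either direction. Slc9a3, the sodium-proton exchanger of colonocytes, had 235 and 179 CPM with WT IL-22 and 95.6 and 87.9 CPM with PBS (log2 change 1.18, edgeR adjusted p = 0.0107). The water channel Aqp4 had 708 and 793 CPM with WT IL-22 and 417 and 418 CPM with PBS. In contrast Scnn1g, a subunit of the aldosterone-regulated sodium channel, had 4.43 and 7.85 CPM with WT IL-22 and 20.1 and 17.4 CPM with PBS (log2 change -1.61, edgeR adjusted p = 0.00793). Car1, a colonic carbonic anhydrase, had 804 and 713 CPM with WT IL-22 and 1446 and 1396 CPM with PBS. Over 33 ion and water transport genes 4 rose and 4 fell (12.1% each, against 10.1% and 6.85% over all genes). Leaving out the first WT IL-22 library left 0 rises by edgeR and 3 falls, while DESeq2 on all libraries called 11 rises and 5 falls, as many as had an unadjusted p under 0.05 in edgeR. Summing the PBS pair left the fall of Best2.

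Goblet cell products were called in small numbers in either direction. Of 20 mucin and goblet cell genes 2 rose, the transmembrane mucins Muc1 and Muc13, and 3 fell, Tff3, Bcas1 and Spink4. Bcas1 had 43.6 and 41.5 CPM with WT IL-22 and 81.9 and 74.2 CPM with PBS. For Spink4 the log2 change was -0.97 (edgeR adjusted p = 0.0244), and -0.23 once length was adjusted (0.257). Of 28 integrins, which bind the matrix, 4 rose (14.3%, against 10.1% over all genes). They were Itga2, Itga3, Itga6 and Itgb6, by 0.87 to 1.07 on the log2 scale. Itga6, of the hemidesmosome, had 321 and 312 CPM with WT IL-22 and 169 and 178 CPM with PBS. Of the integrins edgeR called 0 when the first WT IL-22 library was dropped or the PBS pair was summed (4 at an unadjusted p under 0.05 in the summed fit, and 5 by DESeq2 on all libraries), and of the goblet list 2 genes rose and 1 fell in the first case.

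In metabolism, many drug and redox enzymes fell and part of the sterol genes rose. Of 78 xenobiotic enzymes 24 fell and 1 rose, and 16 fell after length adjustment. Cyp3a13 had 75.3 and 76.8 CPM with WT IL-22 and 154 and 151 CPM with PBS, and Cyp2c55, a colonic P450 with close paralogs, had 230 and 143 CPM with WT IL-22 and 588 and 576 CPM with PBS. The number that fell was 2 once the PBS pair was summed, 3 when the first WT IL-22 library was dropped and 12 when the second was. Of 32 NRF2 targets and glutathione genes 5 rose and 13 fell, against 6 and 4 once length was adjusted. Gsr, which recycles glutathione, had 239 and 234 CPM with WT IL-22 and 127 and 118 CPM with PBS, while Gsta3 had 15.8 and 14.6 CPM with WT IL-22 and 31.5 and 27.8 CPM with PBS. In the NRF2 list 2 rose and 2 fell when the first WT IL-22 library was dropped, and 3 rose and 6 fell when the second was. The fit on summed PBS counts called 0 of this list by edgeR (5 higher and 10 lower at an unadjusted p under 0.05, and 5 and 14 by DESeq2 on all libraries).

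Of 25 cholesterol genes 8 rose. The count was 2 with upper-quartile scaling, 1 after leaving out the first WT IL-22 library and 3 after leaving out the second, and after summing the PBS pair edgeR called 0 (6 at an unadjusted p under 0.05). Ppard, a nuclear receptor that drives fatty acid oxidation, had 458 and 370 CPM with WT IL-22 and 178 and 173 CPM with PBS. Plin2, a lipid droplet coat, and Acadm, of fatty acid oxidation, fell by 0.71 and 0.91. In glycolysis, 2 of 24 genes rose and 1 fell (8.33% and 4.17%, against 10.1% and 6.85% over all genes). Hk2, which traps glucose as its phosphate, had 293 and 183 CPM with WT IL-22 and 73.3 and 84.8 CPM with PBS, and Hk1 rose by 0.70.

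Stress and hormone responses included several falls. Of 20 hypoxia-induced genes 4 fell and 1 rose. Hif1a itself rose by 0.76 (edgeR adjusted p = 0.0201), while Bnip3, a mitophagy receptor, had 35.6 and 41.7 CPM with WT IL-22 and 75.7 and 72.5 CPM with PBS. Among 19 circadian clock genes the activators Npas2 and Clock rose by 1.21 and 0.62, and Dbp, Nr1d2 and Ciart fell by 0.60, 0.62 and 0.82. The hour of collection is not given in the sources used here. Clock and Dbp did not pass after length adjustment (edgeR adjusted p = 0.175 and 0.061). Of 21 glucocorticoid-induced genes 1 rose and 4 fell. With the first WT IL-22 library dropped edgeR called 2 hypoxia genes lower and 0 clock genes, and once the PBS pair was summed it called 0 of either (1 and 5 hypoxia genes and 2 and 4 clock genes higher and lower at an unadjusted p under 0.05; DESeq2 on all libraries called 1 and 6, and 2 and 4).

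Growth factor and stem cell genes rose in small numbers. Met, the receptor of hepatocyte growth factor, had 99.0 and 90.2 CPM with WT IL-22 and 50.1 and 44.8 CPM with PBS (log2 change 0.99, edgeR adjusted p = 0.00468). Myc had 53.9 and 35.5 CPM with WT IL-22 and 16.4 and 18.5 CPM with PBS, and Ephb2, a Wnt target of the crypt base, had 108 and 87.0 CPM with WT IL-22 and 47.5 and 49.6 CPM with PBS. Myc and Ephb2 were among 4 of 26 Wnt and stem cell genes that rose, and 1, Hopx, fell by 0.74. The shares were 15.4% and 3.85%, against 10.1% and 6.85% over all genes. Of 22 growth factor ligands and receptors 3 rose (13.6%), Met among them. Of 37 Ets, Irf and Stat factors 6 rose and edgeR called 0 lower (0 at an unadjusted p under 0.05 and 0 by DESeq2). Elf3, an epithelial Ets factor, had 600 and 438 CPM with WT IL-22 and 262 and 229 CPM with PBS, and Etv6 rose by 1.02. Of 30 apoptosis regulators 4 rose and 3 fell. Casp8 and Apaf1, which start the caspase cascades, rose by 0.94 and 1.25, and Bak1 and Bcl2l1 by 0.62 and 0.48. Mcl1, a survival factor, and Bbc3, which opposes it, fell by 0.59 and 1.24. Bad fell as well, with a log2 change of -0.60. Leaving out the first WT IL-22 library or summing the PBS pair left 0 rises by edgeR among the Wnt, Ets, Irf and Stat, and apoptosis lists (4, 6 and 3 at an unadjusted p under 0.05 with the PBS pair summed, and 8, 9 and 4 by DESeq2 on all libraries).

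Gene families outside any pathway list were read against the same shares of 10.1% and 6.85%. Of 282 solute carriers 34 rose and 13 fell. Slc39a10, a zinc importer, had 47.9 and 42.5 CPM with WT IL-22 and 15.4 and 12.6 CPM with PBS, whereas Slc20a1, a phosphate importer, had 123 and 89.0 CPM with WT IL-22 and 258 and 253 CPM with PBS, and Slc37a2 fell by 1.24. Of 335 Zfp genes 7 rose and 17 fell. Of 47 Trim genes 9 rose, among them Trim40, a ubiquitin ligase, with 53.7 and 49.2 CPM with WT IL-22 and 11.1 and 8.78 CPM with PBS. Of 50 splicing and hnRNP genes 12 rose, and 21 after length adjustment, with Sf3b3 at 1.03 and Hnrnpa3 at 0.88. The splicing list had 9 rises when the second WT IL-22 library was dropped, and edgeR called 0 when the first was dropped or the PBS pair was summed (12 higher at an unadjusted p under 0.05 in the summed fit, and 20 by DESeq2 on all libraries). Among families, dropping the first WT IL-22 library left 9 rises and 3 falls among solute carriers, 3 rises among Trim genes and 2 rises among Zfp genes, and summing the PBS pair left 3 rises and 1 fall, 2 rises, and 0 of either (8 and 23 Zfp genes at an unadjusted p under 0.05). Upper-quartile scaling turned the solute carriers to 23 rises and 21 falls. Of 34 collagens edgeR called 0 (2 higher at an unadjusted p under 0.05, and 0 by DESeq2).

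Ly6a, a surface protein induced in regenerating gut epithelium, had 705 and 606 CPM with WT IL-22 and 185 and 167 CPM with PBS (edgeR adjusted p = 0.00086, and 0.0303 after summing the PBS pair). Ly6g, on the same chromosome, stood at 293 and 293 CPM with WT IL-22 and at 107 and 119 CPM with PBS. Ly6g is also a neutrophil marker, and reads of Ly6 paralogs can be shared. Of 7 neutrophil markers tested, of 15 listed, Ly6g and Ltf rose. The 7 markers summed to 298 and 299 CPM with WT IL-22 and to 111 and 123 CPM with PBS. Nearly all of each sum was Ly6g, so the sums restate that gene. Ltf, which encodes lactoferrin, had 19 and 24 reads with WT IL-22 and 0 and 4 with PBS (edgeR adjusted p = 0.0442, and 0.126 after summing the PBS pair). Only its WT IL-22 libraries met the count minimum of 10. The part of neutrophils in the Ly6g difference was not tested. Slfn9 rose as 1 of 13 schlafen and p200 genes, with 85.1 and 76.0 CPM with WT IL-22 and 14.2 and 15.5 CPM with PBS.

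Markers of the other cell types in the tissue moved unevenly. Of 20 smooth muscle markers 7 fell, and 13 after length adjustment (median -0.59, and -0.65 adjusted). Actg2, an actin of visceral muscle, had 766 and 1037 CPM with WT IL-22 and 1630 and 1595 CPM with PBS, and Tpm2, a tropomyosin, had 546 and 785 CPM with WT IL-22 and 1186 and 1238 CPM with PBS. Myh11, smooth muscle myosin and the longest of those named at 6632 bp, had 1193 and 1534 CPM with WT IL-22 and 1488 and 1464 CPM with PBS and did not pass. The list median stood at -0.81 for the first WT IL-22 library and at -0.38 for the second. Leaving out the first WT IL-22 library left 0 of them lower by edgeR, leaving out the second left 8, and after summing the PBS pair it called 0 (8 at an unadjusted p under 0.05).

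Of 18 macrophage markers 8 fell and 1, Cd14, rose, and 4 fell after length adjustment. Apoe, a lipid carrier, had 248 and 320 CPM with WT IL-22 and 464 and 501 CPM with PBS. Csf1r, the growth factor receptor of macrophages, had 31.5 and 42.3 CPM with WT IL-22 and 40.4 and 38.0 CPM with PBS, and did not pass. Only 1 marker fell when the first WT IL-22 library was dropped, and edgeR called 0 once the PBS pair was summed (8 at an unadjusted p under 0.05). Of 28 fibroblast and matrix markers 2 fell, Dcn and Pi16 (7.14%, against 6.85% over all genes). The median of that list stood at -0.32 for the first WT IL-22 library and at 0.14 for the second. Of 23 endothelial markers 2 rose and 1 fell (8.70% and 4.35%, against 10.1% and 6.85% over all genes). Of 21 markers of neurons, glia and interstitial cells edgeR called 0 (1 higher and 3 lower at an unadjusted p under 0.05, and 1 each by DESeq2).

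Among epithelial types, 3 of 19 colonocyte markers rose and 3 fell (15.8% each, against 10.1% and 6.85% over all genes). The microvillus gene Vil1 had 760 and 610 CPM with WT IL-22 and 420 and 413 CPM with PBS, and Ceacam20 had 250 and 167 CPM with WT IL-22 and 85.8 and 82.6 CPM with PBS. No colonocyte marker was called by edgeR when the first WT IL-22 library was dropped or the PBS pair was summed (3 higher and 4 lower at an unadjusted p under 0.05 in the summed fit, and 5 and 4 by DESeq2 on all libraries). Of 24 enteroendocrine markers 1, Chgb, rose (4.17%, against 10.1% over all genes). Of 16 tuft cell markers 2 fell, Alox5ap and Rgs13 (12.5%, against 6.85%). No tuft cell marker was called by edgeR after length adjustment, without the first WT IL-22 library, or after summing the PBS pair (1 higher and 2 lower at an unadjusted p under 0.05 in the summed fit, 1 higher in the length-adjusted fit, and 1 lower by DESeq2 on all libraries). Of 25 B and plasma cell markers edgeR called 0 (1 higher and 3 lower at an unadjusted p under 0.05, and 1 lower by DESeq2). Among 121 immunoglobulin variable segments 15 rose and 21 fell (21 and 8 after length adjustment), and the 4 libraries each held 739 to 764 CPM of them in sum.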

How the data were processed

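RNA-seq libraries of colon from C57BL/6 mice given WT IL-22 or PBS (2 libraries each) and 22-B3 (2 libraries, in the fit and the gene length trend) were analysed. Enriched mRNA was made into libraries with NEBNext Ultra II reagents per the labels' protocols, and STAR 2.5 and the mm10 build are named in the submitters' processing notes. The counter, the annotation and the use of strand are not given in the sources used here; overlapping genes and near-identical copies are therefore uncertain. The deposited read counts per gene, made by the authors, were whole numbers and were tested as deposited. The authors' deposited FPKM values (scaled by depth and gene length) were read but enter no test.

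Genes with a count of 10 or more in 2 of the 4 libraries were kept. edgeR 4.0.16 (R 4.3.3) fitted all 6 libraries with TMM factors and a robust quasi-likelihood dispersion, 1 mean per group, and p-values were Benjamini-Hochberg adjusted over all 15490 genes with a threshold of 0.05. Folds are WT IL-22 minus PBS on the log2 scale. DESeq2 1.42.0, limma 3.58.1 (voom) and 16 other settings served as alternatives, those on gene length and GC content being added after the data were seen. On counts simulated for these 15490 genes edgeR recovered 59% of the 2-fold changes, 98% of the 4-fold ones, and wrongly called 0.105% of genes left unchanged. The simulated libraries had no length trend and the same spread per gene in every group. The real pairs had coefficients of variation of 16.8% (WT IL-22), 5.47% (PBS) and 21.8% (22-B3). The simulated rates therefore need not hold for the real calls. Named genes were the largest changes by fold and by CPM, up to 4 per direction and list by p, the most abundant members of each list, members of counts of 5 or fewer, and runs of 3 or more neighbours. Genes, lists and tests were chosen with earlier results of these data known. Replicate numbers are not stated to mark shared animals or days, and same-numbered libraries did not deviate together (r = 0.0294 over 15490 genes), so they were not paired. Promoters were matched to RefSeq by gene symbol for 8868 tested genes. A few genes of the lists are not reported here by name.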

Additional observations from a re-analysis of the deposited data

How the results depend on the processing

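Of 626 named genes, 509 passed, and 0 of these changed sign in any of 18 settings. Of the 117 that did not pass, 46 changed sign in at least 1 setting. Summing the PBS libraries left 127 genes higher and 29 lower, and with gene length adjusted as well 298 and 63. Fitting the 4 compared libraries alone gave 2788 and 2263. The replicate block, which pairs libraries by number only, gave 2506 and 2021, of which 1553 and 1056 were among the genes called without it. Leaving out 1 library gave 117 to 2786 genes higher and 28 to 2467 lower. The cause of these differences was not tested, although summing PBS or leaving out a library also lowers the residual degrees of freedom. RLE factors, limma-voom, DESeq2, the other count filters, upper-quartile scaling and the 2 adjustments for length or for length and GC kept both totals within 1.5 times. With 2 libraries per group the median 95% interval of a log2 change, not adjusted for the number of genes, spanned 0.46 to either side. The adjusted threshold was stricter. In edgeR 2920 genes were higher and 2533 lower at an unadjusted p under 0.05, against 1559 and 1061 called. Differences beyond 0.46 could therefore also be missed.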

Other observations

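There were 36 runs of 3 or more neighbouring tested genes that rose (114 genes, at most 4 in a run) and 17 runs that fell (51 genes, at most 3). With 10.1% of all genes rising and 6.85% falling, some runs arise without clustering, and their expected number was not worked out. Several runs are of paralogs whose reads can be shared. On chromosome 16, between positions 35832874 and 35972605 of mm10, Parp14, Dtx3l and Parp9 rose. Dtx3l and Parp9 form a ubiquitin ligase and ADP-ribosyltransferase complex of the interferon response. Dtx3l had 72.2 and 73.8 CPM with WT IL-22 and 30.4 and 31.0 CPM with PBS (log2 change 1.25, edgeR adjusted p = 0.00804). On chromosome 15 the apolipoprotein L genes Apol7a, Apol9a and Apol10a rose by 1.04, 2.59 and 1.97 on the log2 scale, and reads of such paralogs can be shared. Apol10a had 177 and 106 CPM with WT IL-22 and 36.0 and 36.3 CPM with PBS.

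On chromosome 10 the retinol dehydrogenase genes Rdh1, Rdh9 and Rdh16 rose together. Rdh16 had 71.6 and 79.6 CPM with WT IL-22 and 37.6 and 36.7 CPM with PBS. The maternally expressed non-coding genes Meg3, Rian and Mirg on chromosome 12 fell together: Meg3 had 6.07 and 4.66 CPM with WT IL-22 and 14.7 and 13.1 CPM with PBS, and Rian had 9.29 and 10.6 CPM with WT IL-22 and 25.4 and 22.0 CPM with PBS. Only Apol9a and Apol10a of the genes in these 4 runs passed after summing the PBS pair (edgeR adjusted p = 0.0212 and 0.0416).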
